A study of Mus musculus with 24 samples.

Results

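The cerebellum (CB) of 16GsoT/T and wild type (WT) mice was compared at postnatal day 14 (P14) in 6 of the 24 RNA-seq libraries of the series, chosen by the region, age and genotype in their labels. 16GsoT/T mice are homozygous for a reciprocal translocation between chromosomes 5 and 8, and the CB of 3 of them (libraries 4, 5 and 6) was set against that of 3 WT mice (libraries 1, 2 and 3), all of them male by their library names. The labels give the strain background of both groups as C57BL/6, whereas the methods of the study name the B6C3 cross of C57BL/6 with C3H/He. The methods state that 16GsoT/T animals came from homozygous parents, so they were no litter mates of the WT animals, and litter and genotype cannot be told apart. Reads per gene are given as CPM, edgeR's depth-scaled counts on genes after TMM scaling, and a difference as log2 fold change of 16GsoT/T against WT, so that a negative value means a lower level in 16GsoT/T. A gene counted as a differentially expressed gene (DEG) where edgeR's quasi-likelihood test gave it an adjusted p (Benjamini-Hochberg) no higher than 0.05. The p-values measure the spread between these samples, which the labels give as separate animals only through their numbers.

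P14 is a time of rapid growth in the mouse CB. Granule cell progenitors of the external layer leave the cell cycle and migrate inward, Purkinje cells extend their dendrites into the molecular layer along Bergmann glia, and oligodendrocytes lay down myelin. The breakpoint on chromosome 5 lies between *Galnt17*, which encodes a GalNAc transferase of the Golgi, and *Auts2*, a regulator of transcription and of neuronal outgrowth, and the one on chromosome 8 lies in a region whose nearest known developmental gene is *Sox1*.

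Each library held between 22893603 and 40564789 reads on genes, which was 64.8% to 68.1% of all reads in the table. The libraries had the markers of CB, with a summed level of 6412 to 8077 CPM over 11 Purkinje cell genes and of 6365 to 8011 CPM over 11 granule cell genes, while markers of forebrain neurons summed to 12.2 to 20.4 CPM. 16GsoT/T library 4 stood apart from its group. The chi-square of the counts over genes, per degree of freedom, was 47.3 between libraries 4 and 5 and 58.4 between libraries 4 and 6, against 10.7 to 16.1 for the other pairs of one genotype. The main counts of DEGs below are therefore also given without that library.

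The CB of 16GsoT/T mice at P14 differed from WT in few genes, most of them lower. Of 15993 genes tested, 81 were DEGs, or 0.506%, with 66 lower (0.413%) and 15 higher (0.0938%) in 16GsoT/T. By edgeR 1421 of the 15993 had an unadjusted p under 0.05, and DESeq2 called 241 genes. Among the gene lists used here, which were chosen with earlier results of these data known, the glucocorticoid-induced genes held the most DEGs. All 13 of these were lower, and 57 of the 81 DEGs were in no list. Of the 5 tested genes of the Y chromosome 4 fell by close to 1 on the log2 scale, and so did *Galnt17*. The higher DEGs included the transcription factor genes *Egr4* and *Nr4a1* and the immune genes *Ifi44*, *Tnfsf10* and *Gbp3*.

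The size of the changes was modest, with a median of 0.89 for the absolute log2 fold change of DEGs and a smallest value of 0.32. A fold change of at least 1.5 was seen in 62 DEGs, 12 higher and 50 lower. In all 81 DEGs every 16GsoT/T library lay on one side of every WT library, as it did in 13.6% of all tested genes. An exact permutation test of one gene with 3 libraries against 3 cannot give a p below 0.1. The count itself was not firm, since 23 of the DEGs had an edgeR adjusted p above 0.04. Leaving out 16GsoT/T library 4 gave 181 DEGs, with 72 of the 81 among them. Without 16GsoT/T library 5 there were 46, without WT library 1 there were 37, without WT library 2 there were 33, and without WT library 3 there were 46. A core of 20 DEGs, all of them lower, was called under every alternative.

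**Figure D1:**
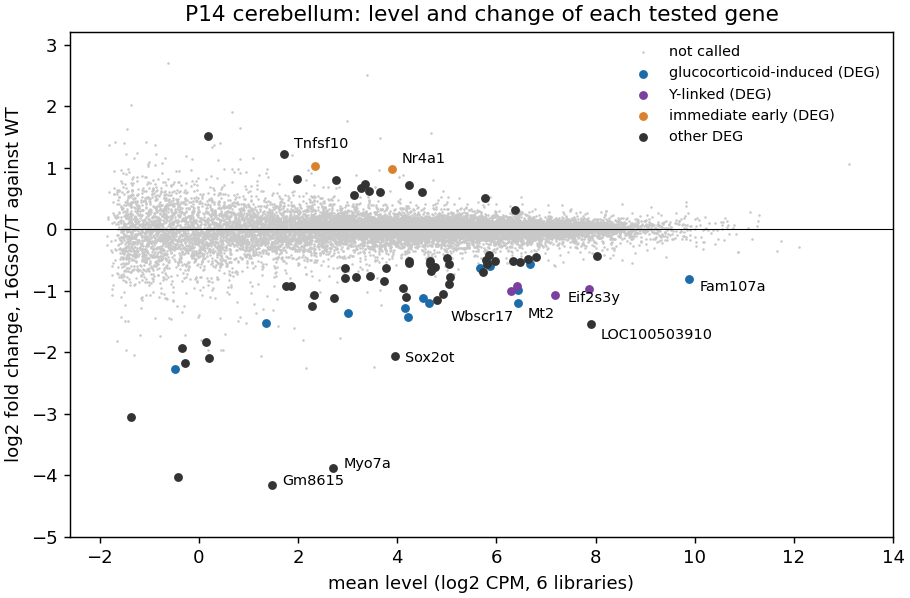
Level and change of each tested gene in P14 CB. The horizontal axis gives the mean level over the 6 libraries (log2 CPM) and the vertical axis the log2 fold change of 16GsoT/T against WT, with genes that were not called in grey, glucocorticoid-induced DEGs in blue, Y-linked DEGs in purple, immediate early DEGs in orange and other DEGs in black. The 4 DEGs with at most 3 reads in one genotype are left out. The DEGs below the line, 66 with those left out, outnumber the 15 above it.

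*Galnt17*, which the table lists under its older symbol *Wbscr17*, had 39.9, 39.8 and 43.1 CPM in the WT libraries and 22.1, 19.03 and 18.2 CPM in the 16GsoT/T libraries 4, 5 and 6. The groups were far apart and the values within each group close together. The log2 fold change was -1.05 (SE 0.0892, edgeR adjusted p = 0.000563). The gene lies on the minus strand of chromosome 5 (chr5:131347952-131783948, NCBIM37), with its near end at 0.071 Mb from the breakpoint. It was the one DEG among 17 tested GALNT genes (median log2 fold change -0.01, against 0.00 over all tested genes). Of the 17, 4 were lower without overlap of the groups, *Galnt17* among them, and 1 was higher. Over all 15993 tested genes 1146 were lower and 1036 higher without overlap.

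Few other genes near the breakpoints were called. *Auts2*, on the other side of the chromosome 5 breakpoint, had 81.3, 92.2 and 85.8 CPM in WT and 86.4, 74.6 and 76.3 CPM in 16GsoT/T, and the groups overlapped (log2 fold change -0.13, edgeR adjusted p = 0.694). *Caln1*, a calcium-binding protein gene beyond *Galnt17*, had a log2 fold change of 0.07 and *Sox1*, a transcription factor gene, one of 0.04, and neither passed the test. Within 5 Mb of the chromosome 5 breakpoint 2 of 79 tested genes were DEGs, namely *Galnt17* and *Glt1d1*. Of those not called in this window *Rimbp2* had the lowest unadjusted p (0.00131 by edgeR). It was lower without overlap of the groups (log2 fold change -0.59, edgeR adjusted p = 0.123). Within 5 Mb of the chromosome 8 breakpoint edgeR called 0 of 46 and DESeq2 called none. There 6 of the 46 had an edgeR unadjusted p under 0.05, against 1421 of all 15993 tested genes. The median log2 fold change was -0.02 in the first window and 0.02 in the second. *Glt1d1*, which encodes a glycosyltransferase-like protein and lies at 3.67 Mb from the breakpoint, had 9.48, 9.48 and 8.05 CPM in WT and 4.26, 3.71 and 4.47 CPM in 16GsoT/T. All mutant libraries were below all WT libraries (log2 fold change -1.12, SE 0.126, edgeR adjusted p = 0.00377).

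**Figure D2:**
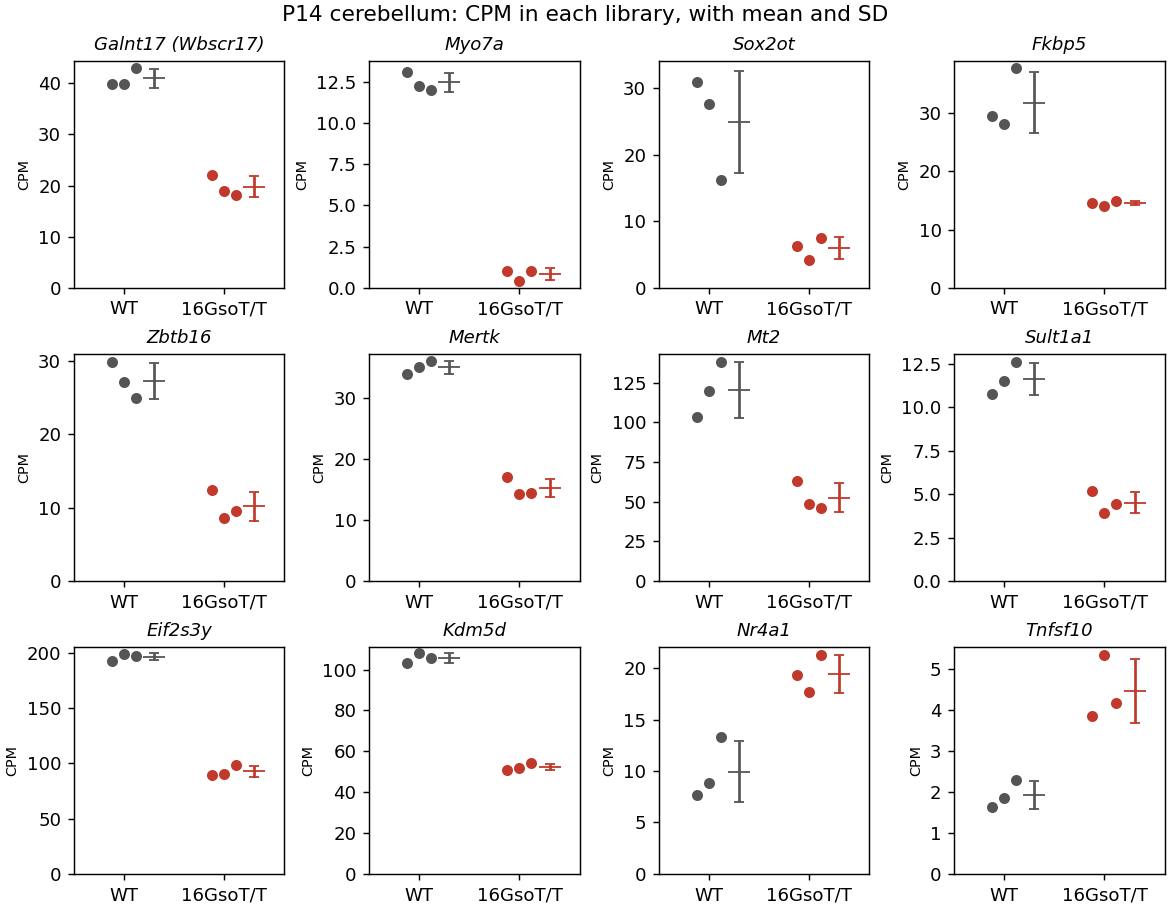
CPM of 12 genes in each P14 CB library, in WT (grey, libraries 1, 2 and 3 from left to right) and 16GsoT/T (red, libraries 4, 5 and 6), with the mean and the SD of each group (n = 3) as bars beside the points. The axes start at 0. In each gene the groups do not overlap, and *Nr4a1* and *Tnfsf10* are higher in 16GsoT/T while the other 10 are lower.

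Glucocorticoids, the steroid hormones of the adrenal cortex, act through a nuclear receptor that binds DNA and switches on genes in many tissues. In the brain these include *Fkbp5*, whose product binds the receptor complex and limits its response, *Tsc22d3*, which encodes the anti-inflammatory protein GILZ, and the metallothionein genes *Mt1* and *Mt2*, whose products bind zinc. Of a list of 26 genes known to be induced in this way, all 26 were tested and 13 were DEGs, all of them lower. Altogether 25 of the 26 had a log2 fold change below 0, with a median of -0.62 against 0.00 over all tested genes. The summed level of the list was 2438 to 2685 CPM in WT and 1633 to 1817 CPM in 16GsoT/T. The list was made with earlier results of these data known, among them the lower levels of *Fkbp5* and *Hif3a*. It is therefore no independent evidence of a fall or of its extent.

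Among the receptor's best known targets, *Fkbp5* had 29.6, 28.1 and 37.8 CPM in WT and 14.6, 14.1 and 14.9 CPM in 16GsoT/T. WT library 3 was the highest, and the mutant libraries lay within 1 CPM of each other (log2 fold change -1.12, SE 0.114, edgeR adjusted p = 0.0018). *Tsc22d3* had 123, 109 and 133 CPM in WT and 85.1, 83.6 and 78.8 CPM in 16GsoT/T (log2 fold change -0.56, SE 0.0789, edgeR adjusted p = 0.0163). *Zbtb16*, which encodes the zinc finger repressor PLZF, had 29.8, 27.1 and 25.0 CPM in WT and 12.4, 8.52 and 9.58 CPM in 16GsoT/T. Its groups were separated by more than the range of either group (log2 fold change -1.43, SE 0.136, edgeR adjusted p = 0.00109). *Hif3a*, which encodes a hypoxia-inducible factor that can restrain the others, had 23.1, 25.98 and 26.8 CPM in WT and 12.1, 9.15 and 10.01 CPM in 16GsoT/T (log2 fold change -1.28, edgeR adjusted p = 0.000851).

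The fall reached genes of several kinds. *Mt2* had 103, 119.8 and 138 CPM in WT and 62.9, 48.8 and 45.8 CPM in 16GsoT/T (log2 fold change -1.20, SE 0.132, edgeR adjusted p = 0.00332), and its neighbour *Mt1* fell by 0.98 on the log2 scale. *Mertk*, which encodes a receptor kinase used by glia to engulf debris, had 33.9, 35.004 and 36.0 CPM in WT and 17.0, 14.2 and 14.5 CPM in 16GsoT/T. This was the lowest adjusted p of the list (log2 fold change -1.20, SE 0.089, edgeR adjusted p = 0.000342). *Sult1a1*, which encodes a sulfotransferase, had 10.8, 11.5 and 12.6 CPM in WT and 5.18, 3.93 and 4.44 CPM in 16GsoT/T (log2 fold change -1.36, edgeR adjusted p = 0.00106). *Fam107a*, an actin-associated gene of glia and neurons, was the most strongly expressed of the 13, with 1168, 1211 and 1242 CPM in WT and 767, 634 and 669.6 CPM in 16GsoT/T. Its decrease was smaller (log2 fold change -0.81, SE 0.0886, edgeR adjusted p = 0.00332), and so were those of *Gjb6*, the connexin 30 gene of astrocytes (-0.63), and of *Cdkn1a*, the gene of the cell cycle inhibitor p21 (-0.59). The lipid droplet gene *Plin4* (-2.28) and the kinase gene *Map3k6* (-1.52) had the largest log2 fold changes of the 13 DEGs at the lowest levels, with a WT mean of 1.16 ± 0.132 and 3.84 ± 1.05 CPM (SD, n = 3).

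Not every target passed the test. Of the 26, 20 were lower without overlap of the groups, against 1146 of all 15993 tested genes. *Per1*, a clock gene that glucocorticoids also induce, had 42.1, 46.0 and 53.9 CPM in WT and 50.5, 40.3 and 50.2 CPM in 16GsoT/T, which overlap (log2 fold change -0.01, edgeR adjusted p = 0.996). *Sgk1*, which encodes a kinase, had 86.1, 81.3 and 96.1 CPM in WT and 69.1, 69.8 and 66.1 CPM in 16GsoT/T, without overlap, and did not pass (log2 fold change -0.36, edgeR adjusted p = 0.0837). The one gene above 0 was *Dusp1*, a phosphatase gene that is also an immediate early gene (0.41, edgeR adjusted p = 0.482). With edgeR none of 16 clock genes was a DEG (median log2 fold change 0.01), 2 had an unadjusted p under 0.05, and DESeq2 called none.

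The count of 13 was sensitive to single libraries. It was 14 without 16GsoT/T library 4, 7 without library 5, 8 without library 6, 8 without WT library 1 and 7 without WT library 3, while 22 to 25 of the list stayed below 0 in every such fit. *Plin4*, *Cdkn1a*, *Map3k6*, *Gjb6*, *Tsc22d3* and *Mt1* each lost the call in at least 3 of the 6 fits with a library removed. Their edgeR adjusted p there reached at most 0.202, in *Cdkn1a* without WT library 2.

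**Figure D3:**
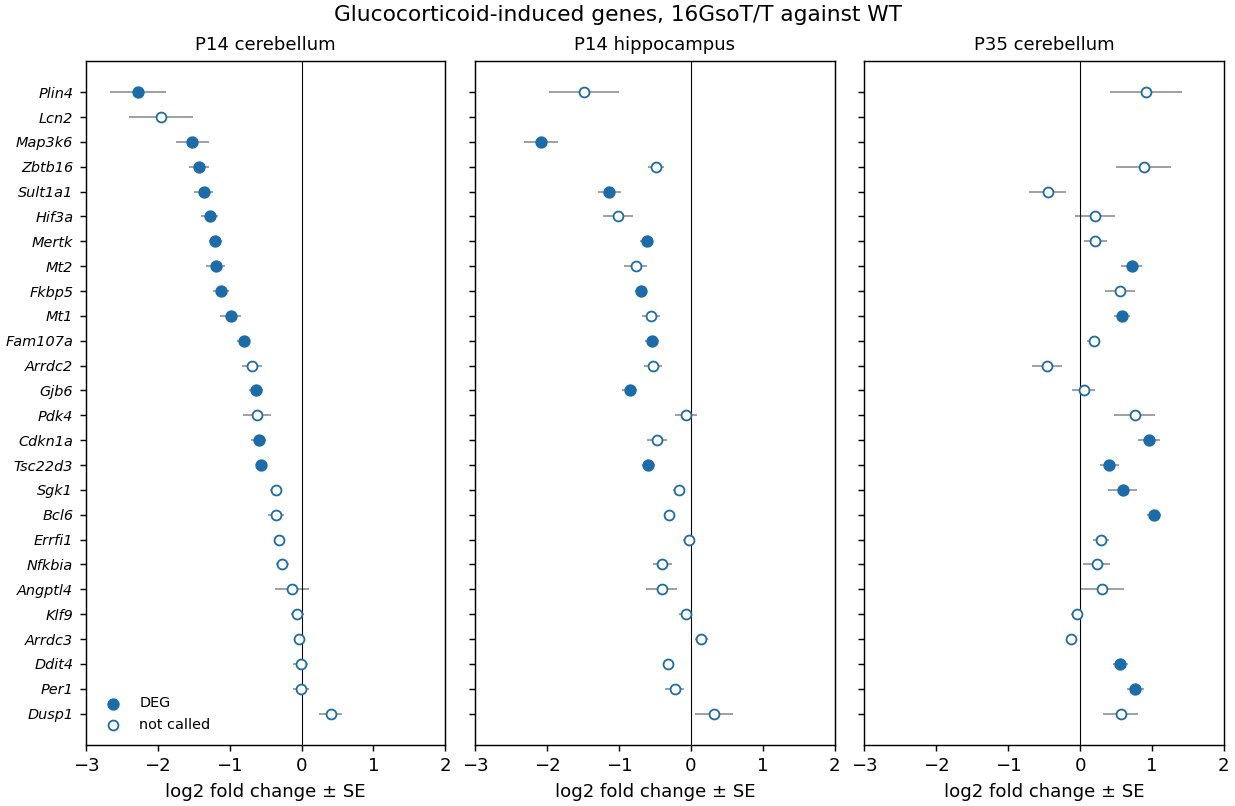
Log2 fold change with its SE for each of the 26 glucocorticoid-induced genes in P14 CB, P14 hippocampus and P35 CB, ordered by the value in P14 CB. Filled points are DEGs of that comparison, and a gene without a point was not tested there. In P14 CB 25 of 26 points lie below 0, and in P35 CB 20 of 24 lie above it.

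The same list was read in the other comparisons, which use other animals or other tissue. In P14 hippocampus (HC), where 0.814% of the tested genes were DEGs, 7 of 25 tested members were DEGs, all lower (median log2 fold change -0.49). There the genotypes were sequenced on different lanes, and lane and genotype cannot be told apart. In P35 CB, where 35.3% of the tested genes were DEGs, 8 of 24 were DEGs, all of them higher (median 0.48). The share of reads on genes was 37.6% to 37.7% in WT and 42.3% to 42.4% in 16GsoT/T of P35 CB, so a difference between the library groups and one of genotype cannot be told apart at that age. In P14 CB this share was 64.8% to 68.1%, so age and library preparation cannot be told apart either. The interaction of genotype with age, tested over the 12 CB libraries, was called in 18.6% of all genes, and all 13 DEGs of the list passed it. These 13 were chosen by the P14 CB libraries that also enter this test, which favours their passing. In P35 CB alone 12 of them were tested and 4 were DEGs, all higher. *Mt2* differed most clearly, with a log2 fold change of -1.20 at P14 and 0.72 at P35 (difference -1.91, SE 0.226, edgeR adjusted p = 4.66e-05). *Cdkn1a* went from -0.59 to 0.96 (difference -1.55, SE 0.203, edgeR adjusted p = 0.000112).

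*Hbegf*, which encodes a growth factor that binds ErbB receptors, had 63.7, 64.8 and 67.9 CPM in WT and 38.1, 46.1 and 37.3 CPM in 16GsoT/T. The values within WT were close, and the highest mutant library was still well below them (log2 fold change -0.69, edgeR adjusted p = 0.00777). It was the one DEG of 11 ErbB ligand and receptor genes, and without WT library 2 it lay just outside the threshold (edgeR adjusted p = 0.0522). Of 20 hypoxia-inducible genes, 2 were DEGs, both lower, *Hif3a* and the glucose transporter gene *Slc2a1* (log2 fold change -0.56, edgeR adjusted p = 0.0432), and the median of that list was -0.05. *Slc2a1* lost its call without any one library other than 16GsoT/T library 4. *Prodh*, the proline oxidase gene, was below WT in every mutant library and did not pass (log2 fold change -0.65, edgeR adjusted p = 0.205), and with edgeR none of the 8 tested genes of proline metabolism was a DEG, while 2 had an unadjusted p under 0.05 and DESeq2 called 1 (*Prodh*).

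The Y chromosome genes were lower in step. *Eif2s3y*, which encodes a subunit of the translation initiation factor eIF2, had 193, 199 and 197 CPM in WT and 89.9, 90.5 and 98.8 CPM in 16GsoT/T (log2 fold change -1.08, SE 0.0647, edgeR adjusted p = 5.82e-05). The histone demethylase gene *Kdm5d* had 103, 108 and 106 CPM in WT and 51.0, 51.9 and 54.1 CPM in 16GsoT/T (log2 fold change -1.01, SE 0.0586, edgeR adjusted p = 5.82e-05). In each of these genes the spread within a genotype was a small part of the gap between the genotypes. The RNA helicase gene *Ddx3y* had 329, 315 and 288 CPM in WT and 161, 158 and 157 CPM in 16GsoT/T (log2 fold change -0.97, edgeR adjusted p = 0.000345). *Uty*, which encodes a protein related to histone demethylases, had 114, 117 and 103 CPM in WT and 57.1, 64.0 and 55.8 CPM in 16GsoT/T (log2 fold change -0.92, edgeR adjusted p = 0.000507).

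The summed level of these 4 genes was 694 to 739 CPM in WT and 359 to 366 CPM in 16GsoT/T, and all 4 were DEGs under every alternative. *Usp9y*, a deubiquitinase gene beside them, had 0.402 CPM in WT library 1, none in the other WT libraries, and 1.34, 0.785 and 0.816 CPM in 16GsoT/T. It stood above WT in all mutant libraries and did not pass (log2 fold change 2.69, edgeR adjusted p = 0.263), but it was called higher by edgeR's classic exact test (adjusted p = 0.0486) and without WT library 1 (edgeR adjusted p = 0.0321). *Xist*, which marks the inactive X chromosome of females, had 28 to 288 reads in the WT libraries and 51 to 90 in the 16GsoT/T libraries. The 4 genes were also lower DEGs in P14 HC and in P35 CB, and in P35 HC, where 0.135% of tested genes were DEGs, none was called, with log2 fold changes from -0.64 to -0.10. *Eif2s3y* was lower by more at P35 than at P14 in CB (difference 0.51, edgeR adjusted p = 0.00222) and *Kdm5d* by less (difference -0.65, edgeR adjusted p = 0.000627).

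The genes with the largest changes were of diverse function. *Myo7a*, which encodes an unconventional myosin of inner ear hair cells and the retina, had 13.1, 12.2 and 12.03 CPM in WT and 1.03, 0.423 and 1.03 CPM in 16GsoT/T. Little of its level was left in any mutant library (log2 fold change -3.89, SE 0.234, edgeR adjusted p = 5.82e-05). It was the one DEG of 12 tested genes of unconventional myosins and Usher proteins. *Sox2ot*, a long noncoding RNA that overlaps *Sox2*, had 30.8, 27.7 and 16.2 CPM in WT and 6.26, 4.17 and 7.47 CPM in 16GsoT/T. WT library 3 was the lowest of its group and still above all mutant libraries (log2 fold change -2.06, SE 0.253, edgeR adjusted p = 0.00716). *Sox2* itself had 30.3, 32.2 and 26.1 CPM in WT and 33.5, 31.0 and 36.3 CPM in 16GsoT/T, with overlap (log2 fold change 0.18, edgeR adjusted p = 0.633), and *Sox2ot* was the one DEG of 14 genes in the list of Sox genes. The unnamed transcript *LOC100503910* was abundant and fell from 433, 358 and 282 CPM in WT to 136, 119 and 114 CPM in 16GsoT/T (log2 fold change -1.54, edgeR adjusted p = 0.000954).

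Several membrane and signalling genes were lower as well. *Kcna5*, which encodes a voltage-gated potassium channel, had 2.13, 1.36 and 2.08 CPM in WT and 0.372, 0.453 and 0.456 CPM in 16GsoT/T (log2 fold change -2.10, edgeR adjusted p = 0.00899, and 0.0622 without WT library 1). *Sytl2*, which encodes a synaptotagmin-like protein of vesicle transport, had 40.0, 39.0 and 37.2 CPM in WT and 22.6, 13.5 and 16.0 CPM in 16GsoT/T. Its mutant libraries spread more than those of WT (log2 fold change -1.16, edgeR adjusted p = 0.0116, up to 0.0728 among the alternatives). *Tmc7*, a member of the transmembrane channel-like family, fell by 1.11 (edgeR adjusted p = 0.000452), and *Dclk3*, a doublecortin-like kinase gene, by 1.25 on the log2 scale (edgeR adjusted p = 0.0115), the latter without a call when WT library 1 or WT library 2 was left out (edgeR adjusted p = 0.0779 and 0.0703). *Sytl2* and *Tmc7* were chosen after their values were seen.

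A few DEGs were close to absent in 16GsoT/T. *Cacng6*, a gene of the calcium channel gamma subunit family, had 57 reads over the 3 WT libraries and 0 in 16GsoT/T, which with the floor of 3 reads over the group makes it at least 22.6-fold lower. The predicted gene *Gm9199* had 288 reads in WT and 0 in 16GsoT/T, at least 114-fold lower by the same floor. *Gm5148* had 170 reads in WT and 2 in 16GsoT/T, a ratio of 101 with a 95% counting interval of 27.5 to 840.1. *Ccnb1ip1*, a meiotic crossover gene, had 57 and 3 reads, a ratio of 22.6 with an interval of 7.34 to 113. The bounds and intervals cover counting error only. *Gm8615*, annotated as a pseudogene, had 5.80, 5.16 and 5.23 CPM in WT and 0.315, 0.272 and 0.312 CPM in 16GsoT/T (log2 fold change -4.15, SE 0.194, edgeR adjusted p = 2.01e-05). It was lower in P14 HC as well (-6.65) and higher in P35 CB (5.10). *Gm5801* is also annotated as a pseudogene and fell by 4.03 on the log2 scale. Reads without a unique alignment were set aside from the genes in the deposited counts, at 10.2% to 13.9% of all reads in P14 CB. A gene with a near-identical copy keeps only its uniquely aligned reads, so the values of these predicted genes are uncertain.

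The 15 higher DEGs had smaller changes than the lower ones and adjusted p-values near the threshold. *Ifi44*, an interferon-induced gene, had 0.517, 0.609 and 0.476 CPM in WT and 1.57, 1.30 and 1.75 CPM in 16GsoT/T (log2 fold change 1.52, SE 0.246, edgeR adjusted p = 0.0333). *Tnfsf10*, which encodes the death ligand TRAIL, had 1.64, 1.86 and 2.29 CPM in WT and 3.86, 5.35 and 4.18 CPM in 16GsoT/T (log2 fold change 1.22, SE 0.192, edgeR adjusted p = 0.0294). *Gbp3*, a guanylate-binding protein gene, had 2.96, 2.67 and 2.77 CPM in WT and 4.80, 5.497 and 4.42 CPM in 16GsoT/T (log2 fold change 0.81, edgeR adjusted p = 0.04995). All 3 were low in level with no overlap of the groups. They had positive values in P14 HC too, between 0.73 and 1.58, none of them called, and *Tnfsf10* (-1.74) and *Gbp3* (-1.42) were lower DEGs in P35 CB. *Ifi44* was not called without 16GsoT/T library 6 or any one WT library (edgeR adjusted p up to 0.16), *Tnfsf10* without 16GsoT/T library 5 or any one WT library (up to 0.176), and *Gbp3* without any one library (up to 0.242).

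Immediate early genes are switched on within minutes when neurons fire, and their promoters carry sites for CREB, the factor that answers to calcium and cyclic AMP. Of a list of 24 such genes 22 were tested and 2, *Egr4* and *Nr4a1*, were DEGs, both higher. The median log2 fold change of the list was 0.23 against 0.00 over all genes, and 19 of the 22 lay above 0. *Egr4*, which encodes a zinc finger factor, had 2.41, 3.25 and 4.15 CPM in WT and 6.38, 6.22 and 7.25 CPM in 16GsoT/T (log2 fold change 1.03, SE 0.186). *Nr4a1*, which encodes an orphan nuclear receptor, had 7.70, 8.87 and 13.3 CPM in WT and 19.3, 17.6 and 21.3 CPM in 16GsoT/T (log2 fold change 0.98, SE 0.177). WT library 3 was the highest of its group in both genes, and both had an edgeR adjusted p of 0.04995, the largest among the DEGs. *Fos* behaved likewise, with 5.77, 4.44 and 9.78 CPM in WT and 16.8, 13.1 and 24.8 CPM in 16GsoT/T, and was not called (log2 fold change 1.48, edgeR adjusted p = 0.0729). The number of DEGs in the list was 1 without 16GsoT/T library 4, 0 without libraries 5 or 6 or WT libraries 1 or 2, and 3 without WT library 3. DESeq2 called 5 and the classic exact test of edgeR 6. *Egr4* (1.30) and *Nr4a1* (1.04) were also higher DEGs in P35 CB. There 9 of 21 tested members were DEGs, all higher, in a comparison where 35.3% of all tested genes were called in either direction. Of the 21, 19 lay above 0 (median log2 fold change 0.47 against -0.003 over all genes). In P14 HC *Egr4* and *Nr4a1* had log2 fold changes of 0.06 and 0.22, without a call.

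The 250 bases before the annotated start of these genes are shown because they hold the short core of the cAMP response element, TGACG, which appears here as CGTCA, its reverse complement, and is set in capitals. They come from RefSeq on GRCm38.p6, a later build than that of the other positions given here. The window of *Egr4* is chr6:85513590-85513839 on the minus strand and that of *Nr4a1* is chr15:101266596-101266845 on the plus strand.
*Egr4*: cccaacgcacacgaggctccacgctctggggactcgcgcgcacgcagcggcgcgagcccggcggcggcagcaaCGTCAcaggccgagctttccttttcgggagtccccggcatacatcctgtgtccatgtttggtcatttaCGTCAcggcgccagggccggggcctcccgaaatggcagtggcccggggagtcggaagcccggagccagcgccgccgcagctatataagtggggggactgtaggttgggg
*Nr4a1*: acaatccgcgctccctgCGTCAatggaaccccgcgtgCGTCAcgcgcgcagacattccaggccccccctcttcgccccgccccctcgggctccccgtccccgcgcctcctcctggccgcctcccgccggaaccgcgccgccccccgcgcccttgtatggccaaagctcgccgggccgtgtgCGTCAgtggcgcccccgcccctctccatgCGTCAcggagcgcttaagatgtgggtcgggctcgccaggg
*Egr4* had 2 copies of this core, at 177 and 109 bases before the start, and *Nr4a1* had 4, the first at 233 and the last at 40 bases before it. In windows from 250 bases before to 50 after the start, searched on both strands, the core TGACG was found in 15 of 18 listed immediate early genes that had a window (83.3%), against 33.6% of 11846 tested genes. Among the higher DEGs 4 of 11 had it, and among the lower DEGs 12 of 46. The whole element TGACGTCA, which contains the core, was in 3.40% of the tested genes and in 2 of the 18. A serum response element of the CArG type (1.55% of tested genes) and the EGR site GCGTGGGCG (1.38%) were found in 0 of the 18 windows, and the inverted repeat of the glucocorticoid response element in 0 of 12 windows of the glucocorticoid-induced DEGs and in 1 of all 11846. That 1 window was among the 24 of the glucocorticoid-induced list, in a gene that was not a DEG. The arm of this repeat, TGTTCT, was in 3 of the 12 DEG windows (25.0%) and in 15.02% of the tested genes. A match is a description of the letters in these windows.

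The other higher DEGs were named by size or, for some, chosen after their values were seen. *Rlbp1*, the gene of a retinaldehyde-binding protein found in glia, had 8.47, 7.77 and 6.58 CPM in WT and 13.1, 13.7 and 11.4 CPM in 16GsoT/T (log2 fold change 0.73, edgeR adjusted p = 0.0383, at most 0.176 without one library). *Gcnt1*, which encodes the enzyme that branches mucin-type O-glycans, had 15.1, 13.7 and 13.6 CPM in WT and 24.9, 18.6 and 26.1 CPM in 16GsoT/T. 16GsoT/T library 5 was the lowest of the mutants and still above WT (log2 fold change 0.72, edgeR adjusted p = 0.049, at most 0.222 without one library). *LOC100504489* had a log2 fold change of 0.81 (edgeR adjusted p = 0.0281, at most 0.17 without one library). *Cd44*, the gene of a hyaluronan receptor, had 8.27, 7.05 and 6.79 CPM in WT and 11.8, 11.6 and 11.8 CPM in 16GsoT/T (log2 fold change 0.67, edgeR adjusted p = 0.0302, up to 0.176 among the alternatives). The remaining 6 were *LOC100502615*, *Pcdh20*, *Aplnr*, *Rem2*, *Fstl5* and *Entpd4*, with log2 fold changes from 0.63 down to 0.32. Each of them lost the call in at least one alternative.

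DEGs lay close together on some chromosomes, a pattern looked for after the data were seen. Of the 81 DEGs, 77 had a position in the annotation. Chromosome 7 held 14 of them, or 18.2%, against 7.68% of the tested genes, chromosome 3 held 10 (12.99% against 4.90%) and chromosome 14 held 8 (10.4% against 3.52%). Another DEG lay within 2 Mb of 32.5% of the placed DEGs, and a DEG lay within 2 Mb of 14.4% of the other tested genes. Without the Y chromosome the share was 28.8% of DEGs, and with a window of 1 Mb on all chromosomes it was 20.8% against 8.65%.

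The lower DEGs on chromosome 3 included *Sox2ot*, *Gm5148*, the RNA exosome gene *Exosc9* (log2 fold change -0.68) and the leucine degradation gene *Mccc1* (-0.52). *Mccc1* had 29.98, 29.6 and 29.8 CPM in WT and 21.7, 20.3 and 20.3 CPM in 16GsoT/T. On chromosome 7, 5 of 39 tested genes between 104230261 and 107427378 (NCBIM37) were DEGs, all lower. These were *Myo7a*, *Chrdl2*, which encodes a BMP antagonist (-1.84), *Thrsp*, a thyroid hormone responsive gene of lipid synthesis (-0.89), the signalling adaptor gene *Gab2* (-0.56) and *Pgm2l1*, a gene of glucose 1,6-bisphosphate synthesis (-0.44). *Thrsp* had 41.2, 45.3 and 41.4 CPM in WT and 23.5, 22.4 and 23.0 CPM in 16GsoT/T. The genes between them that were not called had a median log2 fold change of -0.11. Looser runs lay on chromosome 14, with 4 DEGs of 90 tested genes (*Ccnb1ip1*, *Rem2*, *Gm5801* and *Gjb6*), and on chromosome 6, with 3 of 98 (*Fam176a*, *Egr4* and *Klf15*), and each of these held one higher DEG. None of these runs lies on a chromosome that holds a breakpoint.

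**Figure D4:**
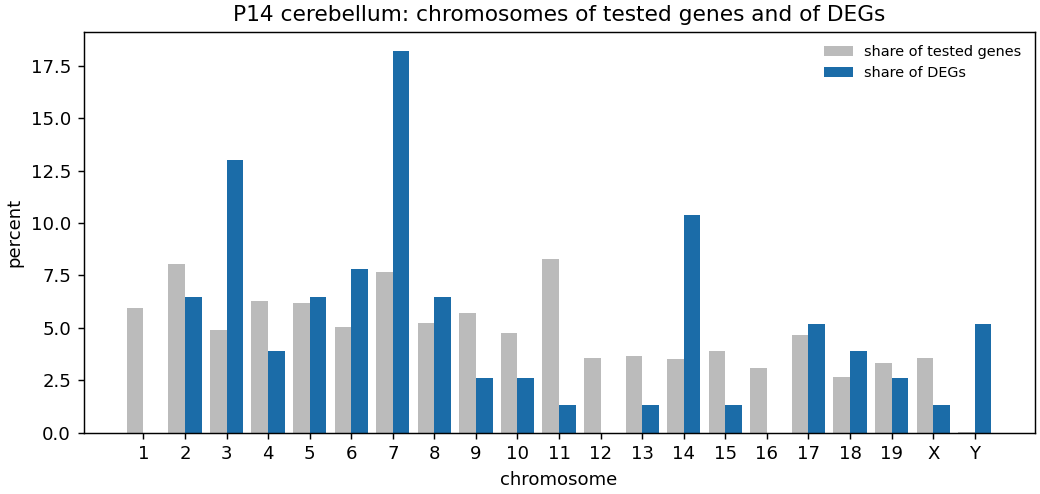
Share of the tested genes (grey) and of the 77 placed DEGs (blue) on each chromosome, in percent, with the axis starting at 0. Chromosomes 3, 7 and 14 hold a larger share of the DEGs than of the tested genes, and chromosomes 1, 12 and 16 hold no DEG.

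Levels of marker genes describe the cells in each library, and in bulk tissue fewer cells of a type and less RNA per cell cannot be told apart. With edgeR none of 130 tested markers of 15 cell types was a DEG, while 24 had an unadjusted p under 0.05 and DESeq2 called 5. Over all 15993 tested genes, 1421 had an edgeR unadjusted p under 0.05 and DESeq2 called 241. All 11 Purkinje cell markers were below 0 (median log2 fold change -0.17), with summed levels of 7344 to 8077 CPM in WT and 6412 to 6856 CPM in 16GsoT/T. *Pcp2*, a Purkinje cell gene, had 264, 292 and 301 CPM in WT and 228, 236 and 229 CPM in 16GsoT/T, without overlap, and did not pass (log2 fold change -0.31, edgeR adjusted p = 0.153). All 11 granule cell markers were above 0 (median 0.14), and 11 of 12 genes of granule cell progenitors and dividing cells were too (median 0.12). Markers of inhibitory interneurons were below 0 in 9 of 10 (median -0.27).

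Glial markers also differed in level without a call. All 12 oligodendrocyte markers were below 0 (median -0.34), with summed levels of 10633 to 12329 CPM in WT and of 11703, 6684 and 8861 CPM in 16GsoT/T libraries 4, 5 and 6. Library 4 was within the range of WT and library 5 was the lowest of all. The 11 markers of Bergmann glia and astrocytes were mixed (median -0.07). *Aqp4*, the water channel gene of astrocytes, had 802, 819.9 and 678 CPM in WT and 1050.4, 1007 and 1058 CPM in 16GsoT/T (log2 fold change 0.44, edgeR adjusted p = 0.087). *Glul*, the glutamine synthetase gene, had 803, 785 and 785 CPM in WT and 645, 519 and 576 CPM in 16GsoT/T (log2 fold change -0.45, edgeR adjusted p = 0.0837). Neither pair of groups overlapped, and DESeq2 and the classic exact test called both genes.

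Tissue outside the CB proper varied between libraries of both genotypes. The 10 choroid plexus markers summed to 692, 234 and 28.4 CPM in WT and to 739, 27.8 and 256 CPM in 16GsoT/T, so both groups had a high and a low library. The 4 hemoglobin genes summed to 117, 61.1 and 115 CPM in WT and to 63.8, 67.3 and 70.5 CPM in 16GsoT/T, which overlap. All 4 had a log2 fold change below 0 (median -1.02). With edgeR none was called, 2 had an unadjusted p under 0.05, and DESeq2 called 1. Several of the glucocorticoid-induced DEGs, among them *Gjb6*, *Mertk* and *Fam107a*, are known from glia. The astroglial marker list had a median of -0.07, with members from -0.45 (*Glul*) to 0.44 (*Aqp4*). All 12 oligodendrocyte markers were below 0. The part of these cell markers in the DEGs was not tested.

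Most DEGs of P14 CB had the same sign in P14 HC, where lane and genotype cannot be told apart. Of 77 that were tested there 72 had the same sign, against 60.3% of the genes that were not called, and 25 were DEGs of P14 HC with the same direction, all of them lower. With edgeR none was a DEG of the opposite direction, and with DESeq2 in both comparisons 3 were. *Myo7a* (-2.23), *LOC100503910* (-1.84), *Hbegf* (-1.03), *Sox2ot* (-1.58) and *Thrsp* (-0.91) were among the shared DEGs. Of the 15 higher DEGs 14 had the same sign, and the lowest edgeR adjusted p among them there was 0.0684, in *Entpd4*. The count of 25 was 10 without 16GsoT/T library 1 of P14 HC, 7 without its library 2, 7 without WT library 1 of P14 HC and 13 without its library 2.

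The genotype effects of CB and HC at P14 were compared directly by an interaction test. In HC lane and genotype cannot be told apart, so lane enters this test with the HC effect. Reads on genes made up 64.8% to 68.1% of all reads in P14 CB and 40.7% to 42.3% in P14 HC. Region and a difference between the library groups therefore cannot be told apart either. With edgeR 0 of 16398 genes passed (0%), while 1509 had an unadjusted p under 0.05 and the lowest adjusted p was 0.122. DESeq2 called 90, and 10 of these were DEGs of P14 CB. Without 16GsoT/T library 4, edgeR called 22, of which 2 were. The synaptotagmin-like gene *Sytl2* is an example of a gene with values that were apart, with -1.16 in CB and 0.10 in HC (difference -1.26, edgeR adjusted p = 0.217).

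The picture in CB differed between the P14 and the P35 libraries. Reads on genes made up 64.8% to 68.1% of all reads at P14 and 37.6% to 42.4% at P35. Age and library preparation therefore cannot be told apart. Of 71 DEGs tested in P35 CB, 41 had the same sign, against 52.7% of the genes not called at P14. Among them 22 were DEGs with the same direction and 9 with the opposite one, in a comparison where 35.3% of all tested genes were DEGs. The interaction of genotype with age was passed by 48 of 80, against 18.6% of all genes tested for it. The P14 libraries that chose these DEGs also enter that test. Lower at both ages were *Myo7a* (-3.89 and -2.67), *Tmc7* (-1.11 and -1.05), *Sytl2* (-1.16 and -1.17) and *Itih3*, a hyaluronan-associated protein gene (-0.77 and -1.06). None of these 4 passed the interaction, with the widest gap in *Myo7a* (difference -1.19, SE 0.434, edgeR adjusted p = 0.0655). *Hbegf* was lower at P14 (-0.69) and higher at P35 (1.11), a difference of -1.80 (SE 0.151, edgeR adjusted p = 1.52e-06). The counts followed the number of DEGs at P14. Without 16GsoT/T library 4 of P14 CB, 41 kept their direction as DEGs of P35 CB and 21 were opposite, and without WT library 2 it was 11 and 3.

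**Figure D5:**
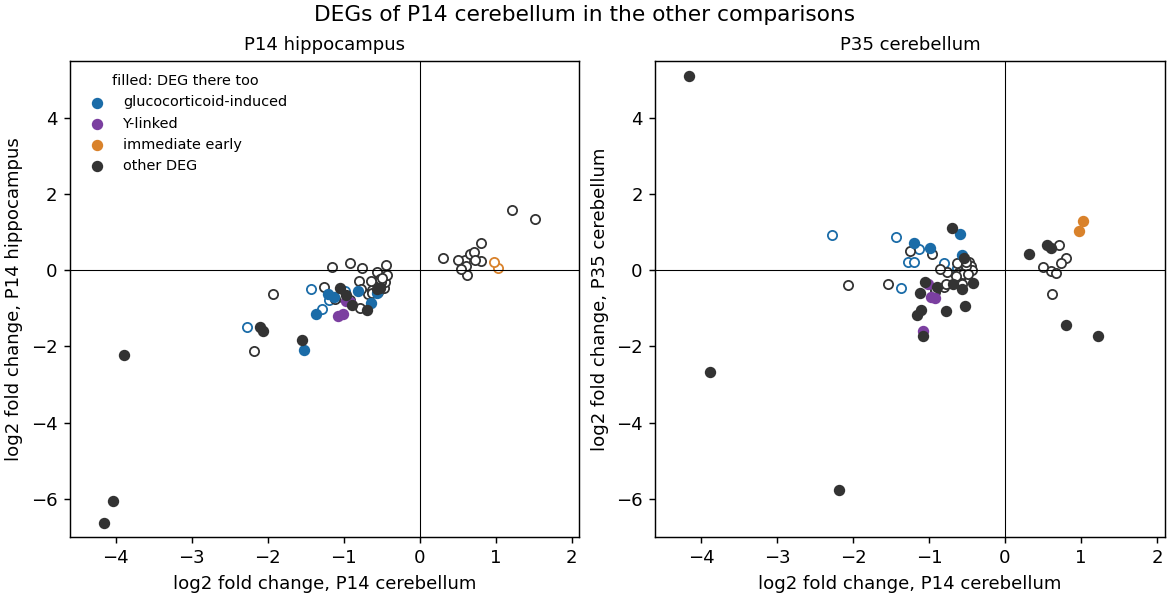
Log2 fold change of the DEGs of P14 CB (horizontal axis) against their log2 fold change in P14 HC (left) and in P35 CB (right), with filled points for genes that are DEGs in that comparison too. Colours are those of the plot of level and change, and the 4 DEGs with at most 3 reads in one genotype are left out. In P14 HC 72 of 77 tested DEGs share the sign, and in P35 CB the glucocorticoid-induced genes in blue lie mostly above 0.

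With edgeR no DEG was found in further lists. They were the heat shock and unfolded protein genes (21 tested, median log2 fold change -0.05), the extracellular matrix genes (21, median -0.11), the synaptic vesicle genes (17, median -0.01), the clock genes and the genes of proline metabolism. An unadjusted p under 0.05 was seen in 1 heat shock gene, 5 matrix genes and 2 vesicle genes, and DESeq2 called 2 of the matrix genes. Over all 15993 genes tested in P14 CB such a p was seen in 1421, and DESeq2 called 241. In P35 CB, with 35.3% of all tested genes called in either direction, the same heat shock list had 9 DEGs of 21 tested, all higher. Its median log2 fold change there was 0.30, with 19 of 21 above 0. The synaptic vesicle list had 12 higher DEGs of 17 (median 0.36). The extracellular matrix list had 11 lower and 1 higher of 21 (median -0.37). The median log2 fold change of all tested genes was 0.00 at both ages.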

How the data were processed

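RNA from CB and HC was sequenced on Illumina sequencers. The methods name a KAPA Stranded mRNA-Seq kit and the labels a TruSeq Stranded one. The deposited values are raw counts per gene, which the authors obtained with HTSeq from TopHat2 alignments and left unnormalized. The submitters' processing notes name TopHat2 2.0.8, HTSeq 0.6.1 and NCBIM37. The annotation and the strand option are not given in the sources used here, so overlapping and antisense genes are uncertain. Of all reads, 64.8% to 68.1% lay on genes, and the summary lines with the others were left out.

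The 25793 gene symbols were filtered with filterByExpr (minimum count 10, minimum total 15), scaled by TMM and tested with edgeR 4.0.16 in R 4.3.3 over the 6 libraries of each region and age, and interactions over 12 libraries. P-values were adjusted by Benjamini-Hochberg over all tested genes. Positions come from GENCODE vM1. The members and the gene lists were chosen with earlier results of these data known. Named were the breakpoint genes, DEGs of at least 1 CPM without overlap (the 8 highest and 14 lowest log2 fold changes), DEGs in a list or within 5 Mb of a breakpoint, and at most 2 genes by p of a list with no DEG. Other DEGs were named after their values were seen, and 1 is not reported here. The fixed alternatives were the classic exact test of edgeR, DESeq2 1.42.0, RLE size factors, other filters, one fit of all 12 P14 libraries and each library left out. The search for neighbouring DEGs and the leave-outs of the counts shared between comparisons were added afterwards. In data simulated for P14 CB, edgeR called 96.9% of 195 genes changed by 1.5 on the log2 scale, with 14 unchanged genes among 15821. For the interactions it called 81.7% (region) and 77.4% (age). The DEGs of P14 CB had a median absolute log2 fold change of 0.89. Recovery of changes below 1.5 was not simulated, so these shares do not apply to them.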

Additional observations from a re-analysis of the deposited data

Results flagged for a closer look

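The genotype effect in CB differed between P14 and P35 by the interaction test over 12 libraries for 41 of the named genes, of which 27 were DEGs at P14 and 14 were not. The values below are the log2 fold change at P14 minus that at P35, so a negative value means that 16GsoT/T stood lower against WT at P14 than at P35. At P35 a difference between the library groups and one of genotype cannot be told apart. Between P14 and P35, age and library preparation cannot be told apart either. The DEGs were chosen by the P14 CB libraries that also enter this test, which favours their passing.

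The 13 glucocorticoid-induced DEGs were all among these 27. The difference was -3.18 for *Plin4*, -2.31 for *Zbtb16*, -2.03 for *Map3k6*, -1.91 for *Mt2*, -1.67 for *Fkbp5*, -1.57 for *Mt1*, -1.55 for *Cdkn1a*, -1.48 for *Hif3a* and -1.41 for *Mertk*. It was smaller for *Fam107a* (-0.99), *Tsc22d3* (-0.96), *Sult1a1* (-0.90) and *Gjb6* (-0.68). Edge cases among them were *Sult1a1* (edgeR adjusted p = 0.0386) and *Gjb6* (edgeR adjusted p = 0.0333).

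The 3 immune genes had positive differences, with 2.98 for *Tnfsf10*, 2.77 for *Ifi44* and 2.24 for *Gbp3*. Among the Y-linked genes the difference was 0.51 for *Eif2s3y* and -0.65 for *Kdm5d*, so the first fell more and the second less at P35.

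*Galnt17* (listed as *Wbscr17*) had a difference of -0.73, *Hbegf* one of -1.80, *Dclk3* one of -1.75, *Sox2ot* one of -1.66 and *LOC100503910* one of -1.17. *Gm8615* had -9.34, the largest, with a lower level in 16GsoT/T at P14 and a higher one at P35. *Kcna5* had -3.64 and was too low to be tested at P35 alone. *Gm9199* and *Cacng6* had fitted differences of -7.15 and -6.65, which rest on libraries with no reads in 16GsoT/T at P14 and are no bounds.

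Of the 14 named genes that were not called at P14, the breakpoint gene *Auts2* had a difference of -0.59 (SE 0.103, edgeR adjusted p = 0.00117), with a log2 fold change of -0.13 at P14 and 0.46 at P35. Negative differences were also seen for *Hbb-b1* (-1.91), *Hspa1a* (-1.74), *Alas2* (-1.36), *Npas2* (-1.25), *Glul* (-0.87), *Gad1* (-0.61), *Syn2* (-0.53), *Gng13* (-0.45) and *Pcp2* (-0.29). Positive ones were seen for the vessel markers *Rgs5* (1.94) and *Cldn5* (1.36), the meningeal marker *Dcn* (1.36) and the glial marker *Aqp4* (0.90), all of which had a log2 fold change above 0 at P14 and below 0 at P35.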

How the results depend on the processing

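No paired analysis was possible because the WT libraries are numbered 1 to 3 and the 16GsoT/T libraries 4 to 6, so the groups share no number. The 81 DEGs (15 higher, 66 lower, 62 past 1.5-fold) became 241 with DESeq2 (70, 171 and 100) and 248 with the classic exact test (75, 173 and 122), both of which called all of the 81, and 137 at an adjusted p of at most 0.1 (34 and 103). Without a filter 26 were higher. Leaving out one library gave 33 to 181 (1 to 29 higher, 31 to 152 lower, 32 to 104 past 1.5-fold). The 13 glucocorticoid-induced DEGs became 7 to 14, and the 2 immediate early DEGs 0 to 3 or, with DESeq2, 5 and, with the exact test, 6. The 4 lower Y-linked DEGs were called in every alternative. The count rose to 5 with the exact test and without WT library 1, through *Usp9y*, which was higher. The share of DEGs with another within 2 Mb, 32.5%, was 22.7% to 38.2% without one library and 20.8% at 1 Mb. The 0 calls of the region interaction became 90 with DESeq2 and 0 to 22 without one library. Of the DEGs with the same sign in P14 HC, 72 became 193 with DESeq2 and 32 to 134 without one library, the 25 that were DEGs there 58 and 7 to 28, and the 0 of opposite direction 3 with DESeq2. In P35 CB, 41 with the same sign became 143 and 17 to 98, the 22 DEGs of the same direction 66 and 11 to 41, and the 9 of the opposite direction 24 and 3 to 21. The cause was not tested. Of 38 named DEGs 19 passed in every alternative run and none changed sign. Signs changed in 4 genes that were not called, whose log2 fold change without one library ran from -0.0067 to 0.14 in *Caln1*, -0.081 to 0.14 in *Sox1* and -0.47 to 1.01 in *Kcnj13*, lowest without 16GsoT/T library 4, and from -0.67 to 0.31 in *Lhx2*, highest without WT library 1. Depth limited genes below about 1 CPM, for which few reads stand behind each value.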

Other observations

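*Thrsp*, *Itih3* and *Tmc7*, chosen after their values were seen, were called under every alternative run and were lower at both ages in CB. *Thrsp* had a log2 fold change of -0.89 in P14 CB, -0.91 in P14 HC and -0.42 in P35 CB, and passed the test in all 3. *Lfng*, a glycosyltransferase gene that modifies Notch receptors, was lower in P14 CB (-0.47, edgeR adjusted p = 0.049) and had 36.4, 34.9 and 41.4 CPM in WT and 25.5, 27.8 and 27.7 CPM in 16GsoT/T. *Klf15*, a transcription factor gene that was on none of the lists, was lower as well (-0.52, edgeR adjusted p = 0.0361), with 22.9, 21.03 and 22.7 CPM in WT and 16.4, 14.6 and 15.6 CPM in 16GsoT/T.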
